A study of Mus musculus with 16 samples.

Results

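The clustered histone genes are the replication-dependent histone genes, most of which lie side by side in the mouse genome. They were taken as all rows of the deposited count table whose symbol begins with Hist1h, Hist2h, Hist3h or Hist4h. This rule found 69 of 34042 genes, of which 56 carry a Hist1 symbol and lie on chromosome 13, 9 to Hist2 on chromosome 3, 3 to Hist3 on chromosome 11, and 1 to Hist4 on chromosome 6. By the letters of the symbol, 6 genes are linker histone H1 genes, 20 are H2A, 18 are H2B, 11 are H3 and 13 are H4 genes. The remaining member, Hist3h2bb-ps, is a processed pseudogene related to H2B. It was kept out of the class sums and was counted with H2B in the counts of changed genes. By GENCODE biotype 2 of the H2A genes, Hist1h2aj and Hist1h2al, are pseudogenes too. These were kept in the H2A sum, of which they made up 0.855% and 6.76% on average in FS and 0.868% and 6.39% in ES. Hist1h2al, at chr13:51202727-51203065, lies apart from the other 55 Hist1 genes, which span chr13:21715763-23934851.

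RNA was sequenced from 16 libraries of mouse pluripotent cells in 4 culture conditions. Naive embryonic stem cells (ES), line E14IV-C, were grown in 2iL and sequenced in 4 libraries, where 2iL combines inhibitors of the kinases MEK and GSK3 with the cytokine LIF. Formative stem cells (FS), which stand for the epiblast between the naive and the primed state, were grown in A3XR, with 3 libraries from line 5ar1 and 3 from line 5ar3. Primed epiblast stem cells came from line AF32 in AF, which holds activin and FGF2 (EpiSC_AF, 3 libraries), and from line AFX6 in AFX, which adds a tankyrase inhibitor (EpiSC_AFX, 3 libraries). A3XR holds activin, a tankyrase inhibitor and a blocker of retinoic acid receptors. The libraries of a group are passages of 1 line, or of 2 lines in FS. The p-values thus measure the spread between passages and, where FS has a single mean, between its 2 lines. Outside FS each condition is 1 line, and line and medium cannot be told apart. In order of replicate, passages were 12, 13, 15 and 20 in ES, 13, 14 and 15 in EpiSC_AF, and 12, 5 and 8 in EpiSC_AFX. In FS they were 10, 12 and 14 for line 5ar1 and 12, 4 and 5 for line 5ar3. The labels name no genetic change in any of these lines.

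Nucleosomes wrap DNA around an octamer of H2A, H2B, H3 and H4, and H1 binds the linker DNA between them. Most clustered histone genes are transcribed in S phase, when DNA is copied, and their short, intronless mRNAs end in a conserved stem-loop in place of a poly(A) tail. Stem-loop binding protein and the U7 small nuclear RNP act in forming that end, and the mRNAs are degraded when replication stops. Because most of these mRNAs carry no poly(A) tail, their yield depends on how RNA was selected. The labels name total RNA and a directional library kit, and whether poly(A) selection or rRNA depletion followed is not given in the sources used here.

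Library depth ranged from 22069338 to 33290250 counts, and the mitochondrial rRNA mt-Rnr2 took from 9.96% to 38.1% of a library. Levels are given as CPM, counts scaled to library size with TMM (trimmed mean of M-values) factors. Naive markers matched the ES label, since Esrrb was at 542 to 707 CPM in ES and at most 2.17 CPM in any other library. Otx2, a formative and primed marker, was at 8.43 to 18.7 CPM in ES and at 88.6 to 215 CPM elsewhere. The primitive streak gene T was at 33.3 to 136 CPM in EpiSC_AF, at most 2.51 CPM in FS and 3.57 to 12.6 CPM in ES, and no EpiSC_AFX library reached the EpiSC_AF range. Cer1, a secreted inhibitor made in endoderm, was at 134 to 375 CPM in EpiSC_AF, the group with the lowest mean histone sums, and at most 3.39 CPM in FS. It set EpiSC_AFX replicate 1 apart, at 91.0 CPM against 2.00 and 0.407 CPM in the other AFX libraries, as did Lhx1, a gene of mesendoderm, at 23.1 CPM against 0.464 and 0.339 CPM. The part of such cells in the histone results was not tested. Of 4 fibroblast markers, Col1a2 was highest in EpiSC_AF at 19.0 to 35.7 CPM and Thy1 was highest in FS at 7.58 to 19.4 CPM, and their part was not tested either.

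Some libraries stood apart in histone RNA. ES replicate 1 was the highest ES library for 57 of the 68 tested members, FS replicate 6 the highest FS library for 61, EpiSC_AFX replicate 3 the highest of its group for 63 and EpiSC_AF replicate 1 for 61. These libraries also had the highest mt-Rnr2 share of their groups, at 38.1%, 24.2%, 25.0% and 21.5%. Each of these highest libraries also had the lowest TMM factor of its group, which raises its CPM. FS replicate 5 was the lowest FS library for 59 members, with an mt-Rnr2 share of 15.7%. FS replicates 5 and 6 were passages 4 and 5 of line 5ar3, and the other FS libraries were passages 10 to 14. Passage was entered as a covariate in an alternative fit of the calls, given at the end. Its part in these levels was not tested. As a share of raw counts, the 5 classes made up 0.689% of ES replicate 1, where ES replicates 2 to 4 had 0.525% to 0.605%, and 1.58% of FS replicate 6 against 0.661% to 1.19% in the other FS libraries. EpiSC_AFX replicate 3 had 1.007% against 0.895% and 0.979%, and EpiSC_AF replicate 1 had 0.611% against 0.539% and 0.598%, so on this scale these 2 libraries stood little above the next. The part of the mt-Rnr2 share in the histone levels was not tested. Fewer cells making a histone mRNA and less of it per cell cannot be told apart in these bulk libraries.

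**Figure D1:**
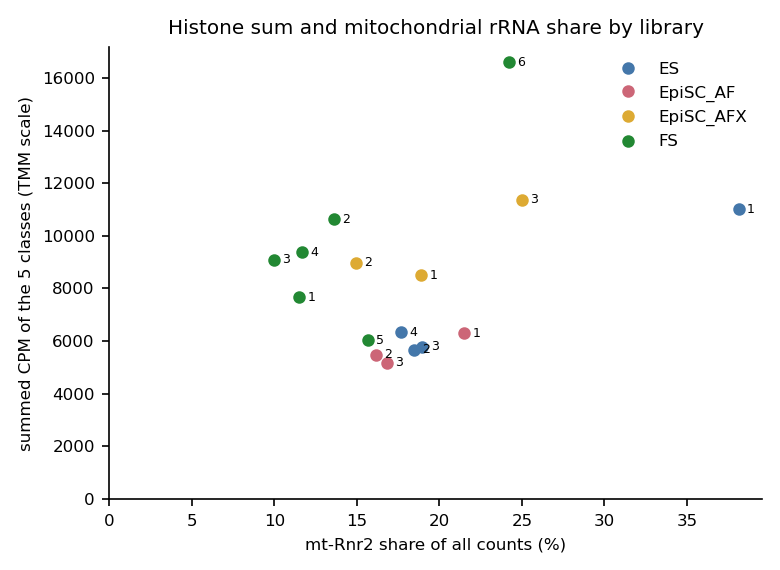
Summed CPM of the 5 histone classes (vertical axis) against the share of counts taken by mt-Rnr2 in percent (horizontal axis), 1 point per library, numbered by replicate and coloured by group. In each group the library with the highest mt-Rnr2 share has the highest histone sum on the TMM scale, up to 16603 CPM in FS replicate 6, and also the lowest TMM factor.

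The 3′ ends of the members are shown because they set these transcripts apart from other mRNAs. The stem-loop was searched in the GENCODE M21 transcripts, in the sense direction, as the arm GGNNCT, the loop TNTN and the arm AGNNCC without gaps, where N is any base. It was found in 45 of the 69 members and in 201 of 55450 genes overall (0.362%). The common forms are written below with the stem arms in capitals and the loop in lower case.
Form of 25 members of H1, H2A, H2B and H3, among them Hist1h1e and Hist3h2ba: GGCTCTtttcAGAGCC
Form of 7 members, all H4, among them Hist1h4d and Hist4h4: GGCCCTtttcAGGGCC
Form of 6 members of H1, H2B and H3, among them Hist1h1t: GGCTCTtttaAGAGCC
Form of 2 members, both H4: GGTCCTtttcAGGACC
No H4 gene carried the form found in 25 members. The match lay within 100 bases of a transcript end in 23 members and farther inside the annotated transcript in 22. In the remaining 24 no match was found, which says only that these letters are not in the annotated transcript, and some of these models end at or near the stop codon.

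Promoters of 60 members were found in RefSeq (61 promoters, GRCm38.p6, 250 bases before to 50 after the start). An octamer (ATTTGCAT, or ATGCAAAT on the other strand), the element first described in H2B promoters, was present in 7 of 17 H2A and 7 of 17 H2B promoters (41.2% each). It was found in no H1, H3 or H4 promoter and in 1.74% of all 32851 RefSeq promoters. A CCAAT box (CCAAT or ATTGG) was in all H1, H2A, H2B and H3 promoters but in 3 of 12 H4 promoters (25.0%), against 37.4% of all promoters. TATAAA or TTTATA was in 57.4% of member promoters and in 13.6% of all. The H1 box (AAACACA or TGTGTTT) was in 5 of 6 H1 promoters (83.3%) and in 7.18% of all. The 250 bases before the start are printed for 3 members whose levels separated ES from the other conditions, with octamer, TATA and CCAAT matches in capitals, and the H1 box in capitals in Hist1h1e alone.
Hist1h2aa, chr13:23934187-23934436, plus strand: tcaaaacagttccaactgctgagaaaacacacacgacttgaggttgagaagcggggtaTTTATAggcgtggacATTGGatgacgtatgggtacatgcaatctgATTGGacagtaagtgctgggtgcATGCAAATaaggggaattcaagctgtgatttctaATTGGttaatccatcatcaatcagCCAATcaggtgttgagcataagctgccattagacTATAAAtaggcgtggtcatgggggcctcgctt
Hist3h2ba, chr11:58948661-58948910, plus strand: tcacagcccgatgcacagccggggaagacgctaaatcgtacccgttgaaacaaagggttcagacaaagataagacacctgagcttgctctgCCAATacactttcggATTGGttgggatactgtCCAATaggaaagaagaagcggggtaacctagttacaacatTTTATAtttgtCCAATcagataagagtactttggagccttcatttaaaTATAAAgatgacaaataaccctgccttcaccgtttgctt
Hist1h1e, chr13:23622559-23622808, minus strand: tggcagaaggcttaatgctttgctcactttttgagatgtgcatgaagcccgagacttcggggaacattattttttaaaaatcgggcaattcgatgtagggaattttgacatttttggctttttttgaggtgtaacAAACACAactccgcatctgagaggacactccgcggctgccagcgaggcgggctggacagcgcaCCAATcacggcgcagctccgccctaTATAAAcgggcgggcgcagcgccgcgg
The Hist1h2aa stretch is shared with the divergent gene Hist1h2ba, and their GENCODE starts lie 306 bases apart. Positions give the first base of a match relative to the RefSeq start. The octamer is at -124 for Hist1h2aa and at -164 for Hist1h2ba. Hist3h2ba has 4 CCAAT matches and no octamer in its window. A match is a description of letters and was not tested as a binding site.

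Class sums were compared first. Every class had its lowest mean in EpiSC_AF, and EpiSC_AFX and FS had the higher means. H1 sums were 2763, 1384, 1357 and 1533 CPM in ES replicates 1 to 4, 1512, 1363 and 1324 CPM in EpiSC_AF, 2002, 2157 and 2754 CPM in EpiSC_AFX, and from 1398 CPM through a median of 2052 to 4336 CPM in FS. EpiSC_AFX lay wholly above EpiSC_AF, while FS overlapped every other group. The core histones showed the same order of the EpiSC groups. H2A means were 1377 ± 579 CPM in FS (SD, n = 6), 1349.6 ± 230.4 in EpiSC_AFX, 716 ± 93.9 in EpiSC_AF and 1021 ± 445 in ES (SD, n = 3, 3 and 4). H2B means were 1717 ± 507 CPM in FS, 1623 ± 169.7 in EpiSC_AFX, 996 ± 139.7 in EpiSC_AF and 1117 ± 382 in ES (SD, n = 6, 3, 3 and 4). H3 means were 2099.9 ± 961, 1936 ± 319, 1045 ± 95.0 and 1537 ± 666 CPM, and H4 means 2407 ± 604, 2400.3 ± 424, 1498 ± 149 and 1769 ± 400.2 CPM, in the same order of groups.

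EpiSC_AFX exceeded EpiSC_AF without overlap in each of the 5 classes, with ratios of the means between 1.60 for H4 and 1.89 for H2A. FS and EpiSC_AF overlapped in H1, H2A, H2B and H4 through FS replicate 5, and did not overlap in H3, where the lowest FS library had 1183 CPM and the highest EpiSC_AF library 1154 CPM. FS and EpiSC_AFX means differed by less than the spread between libraries, with ratios between 0.999 for H1 and 1.08 for H3. Against ES, the FS to ES log2 ratios were 0.39 for H1, 0.43 for H2A, 0.62 for H2B, 0.45 for H3 and 0.44 for H4, each with overlapping libraries. Without ES replicate 1 they were 0.69, 0.78, 0.89, 0.80 and 0.61. The EpiSC_AF to ES ratios were -0.33 for H1, -0.51 for H2A, -0.17 for H2B, -0.56 for H3 and -0.24 for H4. The direction turned for 3 classes when total counts were the only scaling, at 0.01 for H1, 0.17 for H2B and 0.07 for H4. Without ES replicate 1 the H2B ratio was 0.11. ES replicate 1 had the highest ES sum of each class, and ES replicates 2 to 4 overlapped EpiSC_AF in every class. Their H2A sums were 771 to 838 CPM, against 651 to 823 CPM in EpiSC_AF. Their H3 sums were 1124 to 1272 CPM against 979 to 1154, and their H4 sums 1463 to 1726 CPM against 1360 to 1655.

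**Figure D2:**
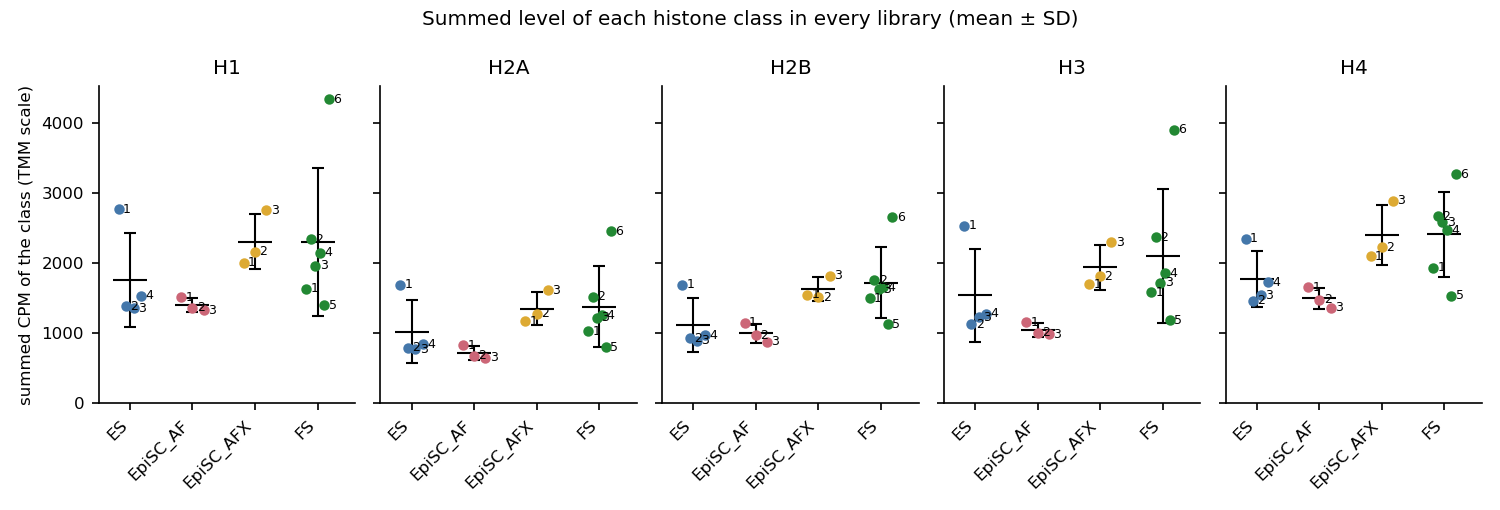
Summed CPM of each histone class (vertical axis, from 0) in every library, numbered by replicate, with the group mean and SD as black bars. EpiSC_AF has the lowest mean in each panel, but its libraries overlap those of ES. ES replicate 1 and FS replicate 6 sit above the other libraries of their groups.

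The balance between classes varied less than the total. Of the summed CPM of the 5 classes, H4 made up 25.0% ± 2.88 in FS (SD, n = 6), 24.9% ± 0.402 in EpiSC_AFX, 26.5% ± 0.396 in EpiSC_AF and 25.2% ± 2.70 in ES (SD, n = 3, 3 and 4). H1 made up 22.8%, 23.9%, 24.8% and 24.3% in the same groups. The H2B share was 15.6% ± 0.458 in ES and 17.7% ± 1.33 in FS. Per kilobase of coding sequence, the highest mean level in its class over all libraries was that of Hist1h4d at 2431 CPM per kilobase, Hist1h3e at 1098, Hist1h1a at 1019, Hist1h2ak at 675 and Hist1h2bb at 506. Exon length was not used in this scale. Hist1h4d has 1138 exon bases for 309 coding bases and Hist1h4k 312 for 309, so genes with long annotated ends may rank higher. Hist1h4d, Hist1h3e and Hist1h2ak were highest of their class in each of the 16 libraries. Hist1h1a was highest in 14, with Hist1h1e above it in FS replicate 5 and Hist1h1c in ES replicate 1. Hist1h2bb was highest in 11, with Hist1h2bl above it in FS replicates 2 and 4 and Hist3h2ba in each EpiSC_AF library, where the means were 304 CPM per kilobase for Hist3h2ba and 282 for Hist1h2bb. At the other end, Hist2h2aa1 had no count in any library. All 50-base words of its near copy Hist2h2aa2 occur in another clustered histone gene, and 32 of the members share at least 50% of their words in this way. Among these are Hist1h3h (93.9%), Hist2h3b and Hist1h2af (79.7% each) and Hist1h4k (71.5%), whose changes are given below. Reads of such genes may be split or lost depending on the handling of multiple matches, which is not given in the sources used here. Exons of 25 members, among them every H2A gene, also overlap those of another annotated gene. For each H2A gene an overlapped gene lies on the opposite strand. The strand setting of the counting is not given either, so H2A levels may be affected.

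Single genes were then compared between cultures with edgeR's quasi-likelihood test over 18555 genes, with calls made where the adjusted p (Benjamini-Hochberg) was under 0.05. Of the 69 members 68 passed the filter on low counts. Comparisons with ES share the ES libraries, and the comparisons of FS or EpiSC_AFX with EpiSC_AF share the EpiSC_AF libraries. Some counts below, from fits that leave out a library or from DESeq2, stand without the share of all genes called in the same fit. Leaving out a library can change calls over all genes, so such counts show only how calls depended on the fit.

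In FS against ES, 29 of 68 members rose and 1 fell. The background over all genes was 32.9% called higher and 29.9% called lower. The median log2 fold change was 0.48 over the members and 0.04 over all genes. H2B genes made up 14 of the 29 that rose, out of 19 tested with the pseudogene, while 3 of 6 H1, 5 of 19 H2A, 2 of 11 H3 and 5 of 13 H4 genes rose. The 1 that fell was Hist1h2aa. Among abundant members, the H4 gene Hist1h4k was at 139, 109.9, 111 and 143 CPM in ES and from 149.5 CPM through a median of 255 to 282 CPM in FS. Its groups did not overlap, and it rose by 0.91 ± 0.16 (log2 ± SE, edgeR adjusted p = 1.18e-04). The H2B gene Hist1h2bm was at 31.7, 31.0, 25.1 and 35.9 CPM in ES and from 41.0 CPM through 65.4 to 99.5 CPM in FS. Its groups were also apart, and it rose by 1.09 ± 0.20 (edgeR adjusted p = 1.51e-04). Without ES replicate 1, 49 members were called higher and 1 lower, against a background of 32.9% and 28.8%. Scaled by total counts only, 61 members were called higher and 1 lower, against a background of 42.8% and 17.9%, and the median was 0.88 over the members and 0.40 over all genes.

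In EpiSC_AFX against ES, 24 members rose and 1 fell, against 28.5% of all genes called higher and 26.2% called lower. The median over the members was 0.40, and 0.01 over all genes. By class, 3 of 6 H1, 5 of 19 H2A, 9 of 19 H2B, 3 of 11 H3 and 4 of 13 H4 genes rose. Hist1h4k was at 193, 210.1 and 247 CPM in EpiSC_AFX, above every ES library, and rose by 0.79 ± 0.19 (edgeR adjusted p = 0.00187). Hist1h2bm was at 64.8, 61.4 and 74.3 CPM and rose by 1.11 ± 0.23 (edgeR adjusted p = 5.52e-04). Without ES replicate 1, 43 members were called higher and 1 lower, against a background of 29.1% and 25.4%. With total counts only these were 44 and 1, against a background of 32.8% and 17.9%. Without EpiSC_AFX replicate 3, ES replicate 2 or ES replicate 3, the number called higher was 11, 13 or 14.

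In EpiSC_AF against ES, 5 members rose and 9 fell, against 29.7% of all genes called higher and 27.0% called lower. The median was -0.40 over the members, and 54 of 68 had a negative value. With total counts as the only scaling 8 rose and 1 fell, against a background of 35.1% and 17.8%, and the median was -0.09. The 5 that rose were Hist3h2ba, Hist3h2bb-ps, Hist3h2a, Hist2h2be and Hist1h1e, and those that fell were all Hist1 genes. The H2A gene Hist1h2af was at 252, 89.0, 78.9 and 84.2 CPM in ES and 72.9, 58.0 and 57.6 CPM in EpiSC_AF. The groups did not overlap, and on the log2 scale EpiSC_AF minus ES was -1.0 ± 0.41 (edgeR adjusted p = 0.0457). Without ES replicate 1 the value was -0.41, with an edgeR adjusted p of 0.291. Without ES replicate 1, 5 members were called higher and 2 lower, against a background of 30.3% and 26.3%. Without EpiSC_AF replicate 1, 2 or 3, the number called lower was 4, 1 or 1.

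In FS against EpiSC_AF, 35 members rose and none fell, against 7.84% of all genes called higher and 8.81% called lower. The median over the members was 0.91. By class 1 of 6 H1, 6 of 19 H2A, 13 of 19 H2B, 7 of 11 H3 and 8 of 13 H4 genes rose. The H3 gene Hist1h3h was at 52.3, 44.5 and 43.2 CPM in EpiSC_AF and from 53.9 CPM through 93.9 to 209.6 CPM in FS. The lowest FS library lay just above the highest EpiSC_AF library, and the gene rose by 1.21 ± 0.36 (edgeR adjusted p = 0.0279). The H3 gene Hist2h3b was at 33.2, 30.0 and 31.0 CPM in EpiSC_AF and from 36.8 CPM through 58.8 to 123 CPM in FS, again without overlap, and rose by 1.14 ± 0.30 (edgeR adjusted p = 0.0146). Both calls were lost without any one of the 3 EpiSC_AF libraries, with log2 values of 1.30, 1.18 and 1.16 for Hist1h3h and 1.18, 1.11 and 1.13 for Hist2h3b. The abundant H4 genes Hist1h4k and Hist1h4f rose by 0.86 ± 0.18 and 0.96 ± 0.20 (edgeR adjusted p = 0.00330 and 0.00340). Without FS replicate 5, the lowest FS library, 53 members were called higher and 0 lower, against a background of 8.12% and 9.41%. Without EpiSC_AF replicate 1, 2 or 3 the number was 21, 12 or 13.

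In EpiSC_AFX against EpiSC_AF, 7 members rose and none fell, against 1.43% and 2.83% of all genes. The median was 0.82, and 51 of 68 members had an unadjusted p under 0.05. The libraries did not overlap in 64 members, 62 higher and 2 lower in EpiSC_AFX, against 16% and 17.9% of all genes. Of the genes that rose, 5 were H2B, 1 was H2A and 1 was H4. Hist1h2bm, at 38.9, 32.7 and 27.4 CPM in EpiSC_AF, was higher in each EpiSC_AFX library and rose by 1.02 ± 0.25 (edgeR adjusted p = 0.0249). This count depended on the fit. When the model held these 6 libraries alone, 59 of 67 members were called higher and 1 lower, against a background of 5.85% and 7.78%, and DESeq2 called 22 higher. With total counts only, 12 were called higher and 1 lower, against a background of 0.965% and 2.11%. No member was called without EpiSC_AF replicate 2 or 3, or without EpiSC_AFX replicate 2 or 3. Without EpiSC_AF replicate 1 the count was 3, without ES replicate 1 it was 18, without FS replicate 5 it was 17, and without FS replicate 6 it was 20, against a background of 1.51% higher and 2.87% lower for the last.

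No member was called between FS and EpiSC_AFX by edgeR, against 5.0% of all genes in either direction. None had an unadjusted p under 0.05, DESeq2 called 0, and the log2 fold changes lay between -0.45 and 0.59 with a median SE of 0.28. Between the FS lines 5ar1 and 5ar3 edgeR also called 0 members, against 3.88% of all genes. Only Hist1h1e and Hist1h1t had an unadjusted p under 0.05, with log2 values of -0.83 ± 0.26 and -1.26 ± 0.52 for 5ar1 relative to 5ar3, and DESeq2 called 1, Hist1h1e. Without FS replicate 5, edgeR called 1 member.

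**Figure D3:**
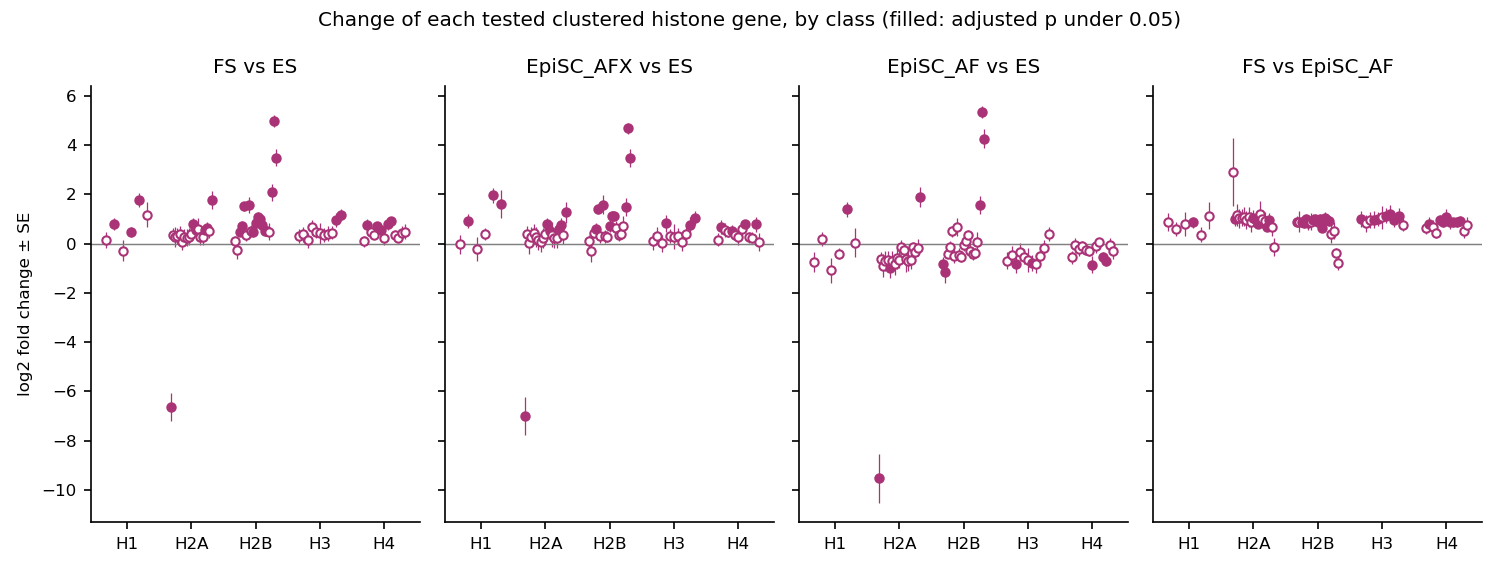
Log2 fold change ± SE of each tested clustered histone gene by class (horizontal axis), in 1 panel per comparison, with filled symbols for an adjusted p under 0.05. Most members lie between 0 and 1 in FS and EpiSC_AFX against ES and below 0 in EpiSC_AF against ES, with Hist3h2ba near 5 in each comparison with ES.

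Some members did not follow the general level of their class. The largest rise in each comparison with ES was that of Hist3h2ba, an H2B gene of the Hist3 cluster (chr11:58948920-58949533, plus strand, mm10). It was at 3.94, 2.17, 2.19 and 3.02 CPM in ES, 132, 106 and 107 CPM in EpiSC_AF, 67.9, 65.9 and 80.9 CPM in EpiSC_AFX, and from 68.0 CPM through 85.3 to 128 CPM in FS. ES lay far below all other groups, and FS overlapped both EpiSC groups. The fold changes against ES were 31.5 in FS, 25.6 in EpiSC_AFX and 41.1 in EpiSC_AF, with log2 values of 4.98 ± 0.23, 4.68 ± 0.24 and 5.36 ± 0.24 (edgeR adjusted p = 1.07e-11, 8.18e-11 and 2.51e-11). Of its 50-base words 22.1% occur in another clustered histone gene.

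The other genes of the Hist3 cluster also rose. Hist3h2bb-ps was at 0.271 to 1.11 CPM in ES, 9.18 to 17.6 CPM in EpiSC_AF, 6.50 to 8.57 CPM in EpiSC_AFX and 5.29 to 10.6 CPM in FS, with log2 values against ES of 4.27 ± 0.37, 3.48 ± 0.37 and 3.5 ± 0.34 in that order (edgeR adjusted p = 4.41e-08, 4.76e-07 and 1.21e-07). Hist3h2a, the H2A gene of the cluster, was at 0.510 to 0.820 CPM in ES, 2.16 to 2.99 CPM in EpiSC_AF, 0.983 to 2.29 CPM in EpiSC_AFX and 1.12 to 3.76 CPM in FS. Its log2 values were 1.89 ± 0.41, 1.27 ± 0.42 and 1.76 ± 0.37 (edgeR adjusted p = 8.79e-04, 0.0167 and 5.52e-04), and the EpiSC_AFX call was lost without EpiSC_AFX replicate 2 (0.98, edgeR adjusted p = 0.0937). Hist3h2a overlaps exons of Trim17 on the same strand, so reads of the 2 genes may be mixed.

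In contrast to the Hist1 cluster, where 32 of 56 genes rose in FS against EpiSC_AF, the Hist3 genes had log2 values of -0.13 to -0.77 there and none was called. Genes on chromosome 11 outside the members had a median log2 value of -0.39 in the same comparison, with 31.3% called lower, while chromosome 13 had a median of 0.02. Of the 10 tested genes nearest to the Hist3 cluster, 7 fell in FS against EpiSC_AF and 1 rose. Against ES, the chromosome 11 median was 0.29 in EpiSC_AF, with 38.8% called higher where 29.7% of all genes were. It was -0.1 in FS and in EpiSC_AFX. Of the 10 neighbours, 7 rose and 2 fell in EpiSC_AF against ES. In FS 3 rose and 3 fell, and in EpiSC_AFX 2 rose and 3 fell. The part of these chromosome-wide differences in the Hist3 values was not tested.

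Hist1h2aa was the one member that fell in every comparison with ES. It encodes an H2A variant known from testis and oocytes (chr13:23934462-23934851, plus strand, mm10). Its counts were 84, 43, 49 and 99 in the ES libraries, 1, 1, 0, 2, 0 and 1 in the FS libraries, 1, 1 and 0 in EpiSC_AFX, and 0 in each EpiSC_AF library. Detection was thus near or at 0 in every library outside ES. Its exon overlaps that of Gm44344 on the opposite strand. Against a floor of 3 counts per library, it was at least 31.6-fold lower in FS, 34.3-fold in EpiSC_AFX and 35.4-fold in EpiSC_AF (edgeR adjusted p = 6.91e-08, 2.15e-06 and 8.51e-07).

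Hist1h2ba, the testis H2B gene that shares the promoter stretch printed above, was at 4.28, 3.70, 4.19 and 4.17 CPM in ES and from 2.80 CPM through 4.20 to 6.12 CPM in FS. The groups overlapped, and FS minus ES was 0.09 ± 0.21 on the log2 scale (edgeR adjusted p = 0.732). In EpiSC_AF it was at 2.99, 2.03 and 1.98 CPM, below every ES library, with a log2 value of -0.81 ± 0.26 (edgeR adjusted p = 0.0129). That call was lost without EpiSC_AF replicate 2 or 3 (-0.71 and -0.70, edgeR adjusted p = 0.0601 and 0.0627). The linker histone Hist1h1t, also known from testis, was at or below 4.33 CPM in all libraries. It was at 1.04, 0.361, 0.501 and 1.28 CPM in ES and 1.35, 3.32 and 2.68 CPM in EpiSC_AFX. EpiSC_AFX lay above ES, and the gene rose by 1.63 ± 0.57 (edgeR adjusted p = 0.0228). That call was lost without EpiSC_AFX replicate 2 or 3 (1.35 and 1.56, edgeR adjusted p = 0.0921 and 0.0554) and without ES replicate 2 or 3 (1.38 and 1.45, edgeR adjusted p = 0.0686 and 0.0648). In FS it had 1.18 ± 0.51 (edgeR adjusted p = 0.0525) and in EpiSC_AF 0.04 ± 0.59 (edgeR adjusted p = 0.959).

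Hist2h2be, an H2B gene on chromosome 3 (chr3:96221119-96223738, plus strand, mm10), was low in all cultures. It was at 1.11, 0.677, 0.501 and 1.23 CPM in ES, 2.70, 1.90 and 3.18 CPM in EpiSC_AF, 2.83, 2.36 and 2.24 CPM in EpiSC_AFX, and from 2.51 CPM through 3.24 to 5.45 CPM in FS. All other groups lay above ES. The log2 values against ES were 1.56 ± 0.37, 1.5 ± 0.37 and 2.09 ± 0.34 (edgeR adjusted p = 0.00169, 0.00252 and 3.73e-05), in EpiSC_AF, EpiSC_AFX and FS.

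**Figure D4:**
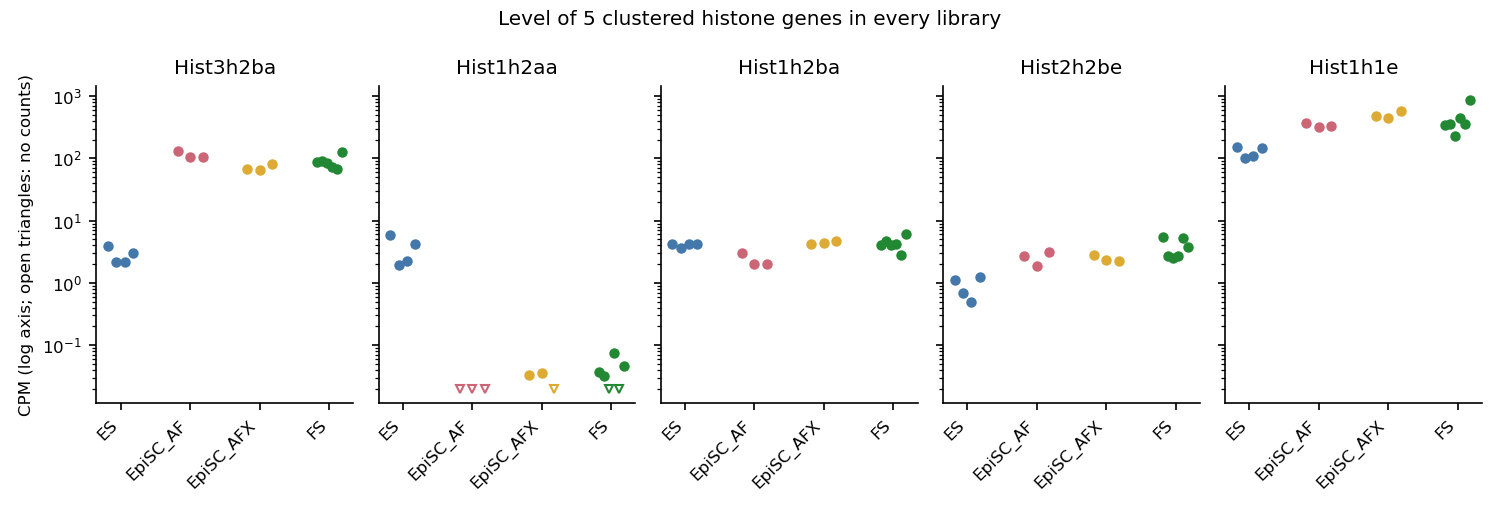
CPM on a log axis of 5 clustered histone genes in every library, by group, with open triangles for libraries with no counts. Hist3h2ba lies at 2.17 to 3.94 CPM in ES and at 65.9 CPM or more elsewhere, and Hist1h2aa was detected in ES at 1.94 to 5.80 CPM.

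Among the linker histones the mix of genes differed between ES and the other cultures. Hist1h1e (chr13:23620629-23622558, minus strand, mm10) was at 152, 102, 108 and 146 CPM in ES, 365, 316 and 327 CPM in EpiSC_AF, 478, 443 and 568 CPM in EpiSC_AFX, and from 227 CPM through 361 to 854 CPM in FS. No library of another group fell within the ES range. It rose against ES by 1.77 ± 0.28 in FS, 1.97 ± 0.31 in EpiSC_AFX and 1.40 ± 0.31 in EpiSC_AF (edgeR adjusted p = 2.66e-05, 3.83e-05 and 8.25e-04). Its annotated transcript overlaps exons of Hist1h2be on the same strand. FS and EpiSC_AF overlapped, with a log2 value of 0.37 ± 0.29 that was not called.

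As a share of the H1 sum, Hist1h1e made up 5.51%, 7.40%, 7.98% and 9.49% in the ES libraries and 11.6% to 25.8% in all others. Hist1h1a made up 38.8% ± 1.14 in ES (SD, n = 4), 29.0% ± 3.35 in EpiSC_AF (SD, n = 3), 28.9% ± 2.83 in EpiSC_AFX (SD, n = 3) and 31.3% ± 8.47 in FS (SD, n = 6). Hist1h1c made up 37.0% in ES replicate 1 and 16.7% to 21.5% in the other ES libraries. Hist1h1a and Hist1h1c were called in none of the comparisons of FS, EpiSC_AFX or EpiSC_AF with ES. Hist1h1d was at 423, 309, 274 and 274 CPM in ES and from 325 CPM through 387 to 719 CPM in FS. Its groups overlapped, and its call in FS against ES (0.46 ± 0.20, edgeR adjusted p = 0.0484) was lost without FS replicate 6 (0.27, edgeR adjusted p = 0.134) and without 11 other single libraries.

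**Figure D5:**
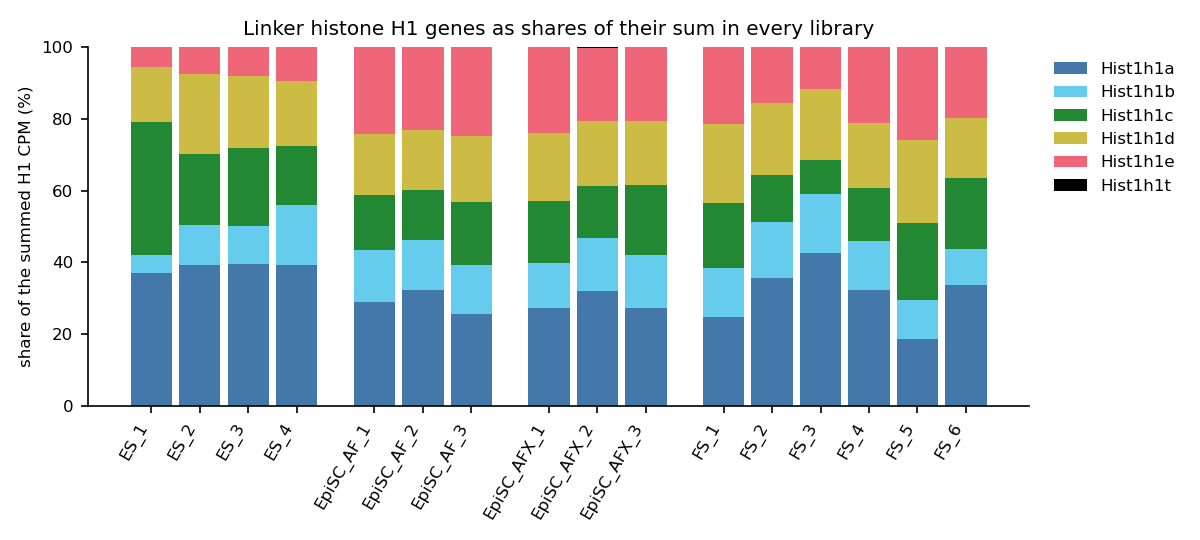
Share of the summed H1 CPM (vertical axis, percent) taken by each linker histone gene in every library (horizontal axis), as stacked bars. The Hist1h1e segment is at most 9.49% in ES and at least 11.6% in every other library.

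H2A and H2B genes often lie head to head, and 14 such pairs had starts 173 to 306 bases apart. Hist1h2aa with Hist1h2ba was left out of the counts, since Hist1h2aa had at most 2 counts in any library outside ES. In FS against ES the H2B partner had the higher log2 fold change in 12 of the other 13 pairs, and in EpiSC_AF against ES in 13 of 13. It was the H2A partner in 12 of 13 for FS against EpiSC_AF. In the last comparison 12 of the 13 pairs differed by at most 0.5, and in FS against ES 8 did. These counts were not tested. The pairs include the pseudogenes Hist1h2aj and Hist3h2bb-ps. By annotation each H2A partner overlaps exons of another gene on the opposite strand, and none of the H2B partners overlaps another gene. With the strand setting not given, H2A and H2B values may be affected differently. Examples chosen after their values were seen are Hist1h2ad at 0.32 beside Hist1h2bf at 1.51, and Hist2h2ac at 0.51 beside Hist2h2be at 2.09, both in FS against ES.

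Members were also grouped by their annotated 3′ ends. Exon length ran from 312 to 7425 bases, with 43 members under 700. Of 22 tested members whose stem-loop lies within 100 bases of a transcript end, 8 rose in FS against ES with a median of 0.38. Of 22 with the stem-loop farther inside, 8 rose with a median of 0.48, and of 24 with no match 13 rose and 1 fell with a median of 0.52, where 32.9% of all genes were called higher and 29.9% lower. In higher calls the first 2 sets lie near that background, while 0 members of either set were called lower. The medians in FS against EpiSC_AF were 0.96, 0.85 and 0.90. These differences were not tested.

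Genes that act on histone RNA and protein, taken from 6 lists, moved in both directions. Over all genes 32.9% were called higher and 29.9% lower in FS against ES, 28.5% and 26.2% in EpiSC_AFX, and 29.7% and 27.0% in EpiSC_AF, and each list was read against these shares. Of 15 genes of histone mRNA processing, 4 rose and 4 fell in FS against ES, 2 rose and 3 fell in EpiSC_AFX, and 1 rose and 3 fell in EpiSC_AF, all at or below the background. Sympk, a scaffold of the cleavage complex, rose by 0.63 ± 0.15 in FS against ES, and Casp8ap2, a component of histone locus bodies, fell by 0.64 (SE 0.16; edgeR adjusted p = 0.00194 and 0.00227). Of 8 decay genes, Dcp2, an mRNA decapping enzyme, and Exosc10, an exosome nuclease, were the 2 that fell in each comparison with ES, with log2 values of -0.78 and -0.75 in FS (edgeR adjusted p = 1.16e-04 and 3.82e-05). Without FS replicate 3 the number of decay genes called in FS against ES was 4, and without ES replicate 1 it was 5. Of 2 tested octamer factors, Pou2f1 rose in FS against ES by 0.58 ± 0.18 (edgeR adjusted p = 0.0113), and Pou5f1 was at 0.01 ± 0.26. The FS lines lay on either side of ES in mean Pou5f1. It was 989 ± 265 CPM in 5ar1, 455 ± 103 in 5ar3 and 717 ± 56.6 in ES (SD, n = 3, 3 and 4).

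Of 22 S phase genes, 1 rose and 8 fell in FS against ES, 8 fell in EpiSC_AFX, and 1 rose and 10 fell in EpiSC_AF. Higher calls were fewer than over all genes (32.9%, 28.5% and 29.7%), and lower calls were near or above the 29.9%, 26.2% and 27.0% of all genes. In FS against EpiSC_AF, where 35 histone genes rose, 1 of the 22 rose, against 7.84% of all genes. It was the replicative helicase subunit Mcm3 (0.48 ± 0.13, edgeR adjusted p = 0.0133). That call was lost without EpiSC_AF replicate 2 or 3 (0.44 and 0.49, edgeR adjusted p = 0.0772 and 0.0552). Mcm2, another subunit, had 0.50 ± 0.17 there (edgeR adjusted p = 0.0571). The cyclin gene Ccna2 was the S phase gene that rose in FS against ES (0.36 ± 0.12, edgeR adjusted p = 0.0125), a call lost without ES replicate 3 (0.31, edgeR adjusted p = 0.0526). Cell cycle phase was not measured.

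Replacement histone genes lie outside the clusters and are made throughout the cell cycle, mostly as polyadenylated mRNA. Of 12 tested, 6 rose and 1 fell in FS against ES, 4 rose and 2 fell in EpiSC_AFX, and 5 rose and 3 fell in EpiSC_AF. The backgrounds were 32.9% higher and 29.9% lower, 28.5% and 26.2%, and 29.7% and 27.0%, so the higher calls lay above them in FS and EpiSC_AF and near them in EpiSC_AFX, and the lower calls lay below or near them. The linker variant H1f0 rose by 2.63 ± 0.23 in FS, 2.57 ± 0.25 in EpiSC_AFX and 3.11 ± 0.25 in EpiSC_AF (edgeR adjusted p = 2.74e-08, 1.56e-07 and 1.87e-08). The H3.3 gene H3f3b rose by 0.74 ± 0.10, 0.65 ± 0.12 and 1.20 ± 0.12 (edgeR adjusted p = 5.99e-06, 1.36e-04 and 1.54e-07). In FS against EpiSC_AF, where 7 of 11 clustered H3 genes rose, H3f3b fell by 0.46 (SE 0.11, edgeR adjusted p = 0.00611). Of 18 chaperone genes, 1 rose and 6 fell in FS against ES, where the lower calls were near the background of 29.9% and the higher calls below that of 32.9%. Among them the H1 and H3 chaperone Nasp rose by 0.33 ± 0.11 and Atrx, a chromatin remodeller that deposits H3.3, fell by 0.41 (SE 0.11; edgeR adjusted p = 0.0110 and 0.00408).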

How the data were processed

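RNA was sequenced from 16 libraries, and the authors deposited raw counts per gene for 34042 genes. Per the submitters' processing notes, Trim Galore, TopHat2 2.1.0, featureCounts 1.5.0 and the mm10 build were used. The annotation release, the strand setting and the handling of multiple matches are not given in the sources used here. Left out were 6 columns that no label matched. Libraries held 22069338 to 33290250 counts, and the floor of 3 counts covers counting error alone.

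Samples were grouped by culture condition. Replicate numbers are in accession order and give no pairing. Counts were fitted with edgeR 4.0.16 in R 4.3.3 over all 16 libraries, with filterByExpr, TMM scaling, a mean per group and a robust quasi-likelihood model. Calls are at a Benjamini-Hochberg adjusted p under 0.05 over all 18555 genes tested. The FS lines were compared with a mean per line. CPM values are on the TMM scale, and class sums have no test. The procedure was tested on simulated data.

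Coordinates and transcripts are from GENCODE M21, where 67 members matched by identifier and 2 by symbol, and promoters are from RefSeq (GRCm38.p6).

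Members and lists were chosen with earlier results of these data known. Named members are the 3 most abundant coding genes per class, up to 3 called per comparison and direction with a log2 change of at least 1 and no overlap, the testis members, and Hist3h2a, Hist3h2ba and Hist4h4. List genes named are up to 4 called genes per list with the highest mean CPM. Alternatives were DESeq2 size factors, total counts only, other filters, leaving out each library, DESeq2 1.42.0, a test against a log2 change of 1, passage as a covariate, a fit of the compared groups alone, a mean per line, single FS lines and leaving out mitochondrial rRNA. Leaving out the 3 libraries with an mt-Rnr2 share of at least 24% was added after seeing the data.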

Additional observations from a re-analysis of the deposited data

Results flagged for a closer look

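In groups of 4 to 10 libraries, 24 of 66 sets of values had 1 library far from the others by Dixon's criterion at 95%, where chance alone gives about 1 in 20. These sets are not independent, since they come from the same libraries. ES replicate 1 was the distant library in 14 and FS replicate 6 in 10, each as the highest.

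ES replicate 1 had a class sum of 2763 CPM for H1 against 1357 to 1533 in the other ES libraries, 1687 CPM for H2A against 771 to 838, 1688 CPM for H2B against 889 to 969, and 2531 CPM for H3 against 1124 to 1272. Among single genes it had 1026 CPM for Hist1h1a, 1023 CPM for Hist1h1c, 252 CPM for Hist1h2af, 534 CPM for Hist1h2bb and 217 CPM for Hist1h2bg. It had 652 CPM for Hist1h3e, 495 CPM for Hist1h3f, 363 CPM for Hist1h3c, 144 CPM for Hist1h3h and 220.0 CPM for Hist1h4i. The H4 sum and Hist1h1e were not among the ES sets. These CPM rest on a TMM factor for this library below the 0.923 to 0.955 of the other ES libraries. As a share of raw counts, the 5 classes made up 0.689% of it, against 0.525% to 0.605% in the others.

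FS replicate 6 had 4336 CPM for the H1 sum against 1398 to 2338 in the other FS libraries. It had 858 CPM for Hist1h1c, 719 CPM for Hist1h1d, 854 CPM for Hist1h1e, 593 CPM for Hist1h2ak and 368 CPM for Hist1h2bb. It had 283 CPM for Hist1h2bg, 957 CPM for Hist1h3e, 412 CPM for Hist1h3c and 128 CPM for Hist3h2ba. Its share of raw counts in the 5 classes was 1.58%, against 0.661% to 1.19% in the other FS libraries. The mt-Rnr2 shares of these libraries were 38.1% and 24.2%, the highest of their groups, and their part in these levels was not tested.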

How the results depend on the processing

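No named call changed sign under the alternatives run, but of 71 such calls 56 were lost in the test against a log2 change of 1, 22 with passage as a covariate, 13 with total counts only, and 31 on leaving out some library. Of the 53 that are histone calls, 14 held under every alternative, and 28 with the test against a log2 change of 1 set aside. The counts of calls that follow stand without the share of all genes called in the same fit, which moves too. In EpiSC_AFX against EpiSC_AF the share called higher was 1.43%, and 5.85% when only those groups were fitted. The counts therefore show how calls depended on the fit, not how members differed from other genes. In FS against ES 30 members were called in all, 62 with total counts as the only scaling, 8 in a test against a log2 change of 1, and 25 to 50 on leaving out 1 library. In EpiSC_AFX against ES the 25 calls became 45, 5 and, with passage as a covariate, 13, and 12 to 44 on leaving out 1 library. In EpiSC_AF against ES the 14 calls became 9 with total counts only (8 higher and 1 lower, against 5 and 9), 9 with no low-count filter, 4 in the test against a log2 change of 1, and 6 to 20 without 1 library. In FS against EpiSC_AF the 35 calls became 0 in that test, 21 with passage, and 12 to 53 without 1 library. In EpiSC_AFX against EpiSC_AF the 7 calls became 13 with total counts only, 0 in the test against a log2 change of 1, 1 with passage, 60 with only the groups compared, 15 without the 3 libraries of highest mt-Rnr2 share, 22 by DESeq2, and 0 to 20 without 1 library. Between the FS lines the 0 calls became 1 by DESeq2 and 0 to 1 without 1 library. With total counts only, the H4 log2 ratio of FS to ES moved from 0.44 to 0.83 and that of EpiSC_AF to ES from -0.24 to 0.07. The cause was not tested.

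That scaling moved the median of all genes to 0.40 in FS, 0.25 in EpiSC_AFX and 0.29 in EpiSC_AF against ES. Relative to that median the members stood at 0.48, 0.43 and -0.38, against 0.44, 0.39 and -0.41 with TMM. Of all called genes in FS against ES, 52.4% were higher with TMM and 70.5% with total counts only; these shares were 52% and 64.7% for EpiSC_AFX and 52.4% and 66.3% for EpiSC_AF. No paired analysis was possible because the replicate numbers follow accession order and pair no libraries. Low counts limit Hist1h2aa, Hist3h2a, Hist2h2be and Hist1h1t, and shared sequence limits 32 members.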
